A study of Rattus norvegicus with 2 samples.

Results

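The pericyte-like cells described here were the cells that carried cluster number 2 in the cell tables deposited with a single-cell RNA sequencing study of the neonatal rat heart. Cluster 2 held 2609 of the 24220 cells, with 1188 of 11531 cells in the saline control library (10.3%, 95% interval 9.75 to 10.9) and 1421 of 12689 cells in the LPS library (11.2%, 10.7 to 11.8). The depositors numbered 11 clusters and named most of them, but left cluster 2 without a cell type, under the entry "Uncommented". Both libraries came from hearts of Sprague-Dawley rats aged 1 to 3 days, with males and females pooled. The hearts were digested with trypsin, enriched on a Percoll gradient for low-density cells and labelled as intrinsic cardiac adrenergic (ICA) cells, plated, and then given either saline or 1 µg/mL lipopolysaccharide (LPS), the endotoxin of Gram-negative bacteria, for 2 h. Each condition had 1 library, so no difference between saline and LPS has a replicate check and no test was possible. Intervals in parentheses are exact 95% intervals and cover counting error only.

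Pericytes are the mural cells that sit on capillaries inside the endothelial basement membrane, and in the heart they are one of the most common non-myocyte cell types. They receive platelet-derived growth factor from endothelium through the receptor PDGFRB, hold potassium channels that open when ATP is low, and respond to nitric oxide through soluble guanylyl cyclase. Pericytes in several tissues respond to endotoxin with chemokines and adhesion molecules that draw leukocytes to the vessel wall. Towards arterioles they grade into vascular smooth muscle cells, which hold more contractile protein.

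Levels are given as unique molecular identifiers (UMIs, counted transcript molecules) of a gene per 1000000 UMIs of the cluster, written CPM. The kit reads transcripts at their 3′ end, so levels were not divided by transcript length and are compared between cells, not between genes. Cluster 2 held 9366075 UMIs in control and 8399503 in LPS, of 152624585 and 127580475 in the libraries. Its cells were shallow beside the rest, with a median of 6853.5 UMIs per cell in control and 5082 in LPS, against 12479 and 9432 over each library. The median mitochondrial share was 3.93% and 3.48%. Of the cell barcodes, 194 occurred in both libraries, and 13 control and 17 LPS cells of cluster 2 had a barcode that the other library held too. Where shares of cells with a UMI are given, cells were first brought to an equal depth of 3000 randomly drawn UMIs. The 27 LPS cells of cluster 2 below that depth were left out of the shares.

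All 6 genes used to check the identity of the cluster were far above their level in cluster 0, the most numerous fibroblast cluster. Since the clusters had been built from the same counts, these levels are a description and were not tested. *Rgs5* (ENSRNOG00000002730), which encodes a GTPase activator of G proteins and is a classic pericyte gene, stood at 93.6 CPM (87.5 to 100.04) in control and 106 CPM (99.6 to 114) in LPS. This was 34.6 times the level in cluster 0 in control and 42.9 times in LPS. *Kcnj8* and *Abcc9* encode the pore and the regulatory subunit of the ATP-sensitive potassium channel of mural cells. *Kcnj8* stood at 296 CPM (285 to 307) in control and 212 CPM (202 to 222) in LPS, or 24.4 and 29.7 times cluster 0. *Abcc9* stood at 304 CPM (293 to 315) and 273 CPM (261 to 284), or 21.6 and 24.5 times cluster 0. The cluster with the next highest *Abcc9* level was cluster 3, named ICA cells and cardiomyocytes by the depositors, with 108 CPM in control and 115 CPM in LPS. *Higd1b*, a gene of the hypoxia-inducible domain family, stood at 58.9 CPM and 65.6 CPM, or 16.3 and 19.9 times cluster 0. *Ndufa4l2*, a hypoxia-responsive mitochondrial gene, stood at 130 CPM and 109 CPM, or 46.3 and 36.2 times cluster 0. *Gucy1a1*, the alpha subunit of the nitric oxide receptor soluble guanylyl cyclase, stood at 106 CPM and 51.4 CPM, or 13.9 and 21.6 times cluster 0. The cluster is called pericyte-like below after these genes.

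**Figure D1:**
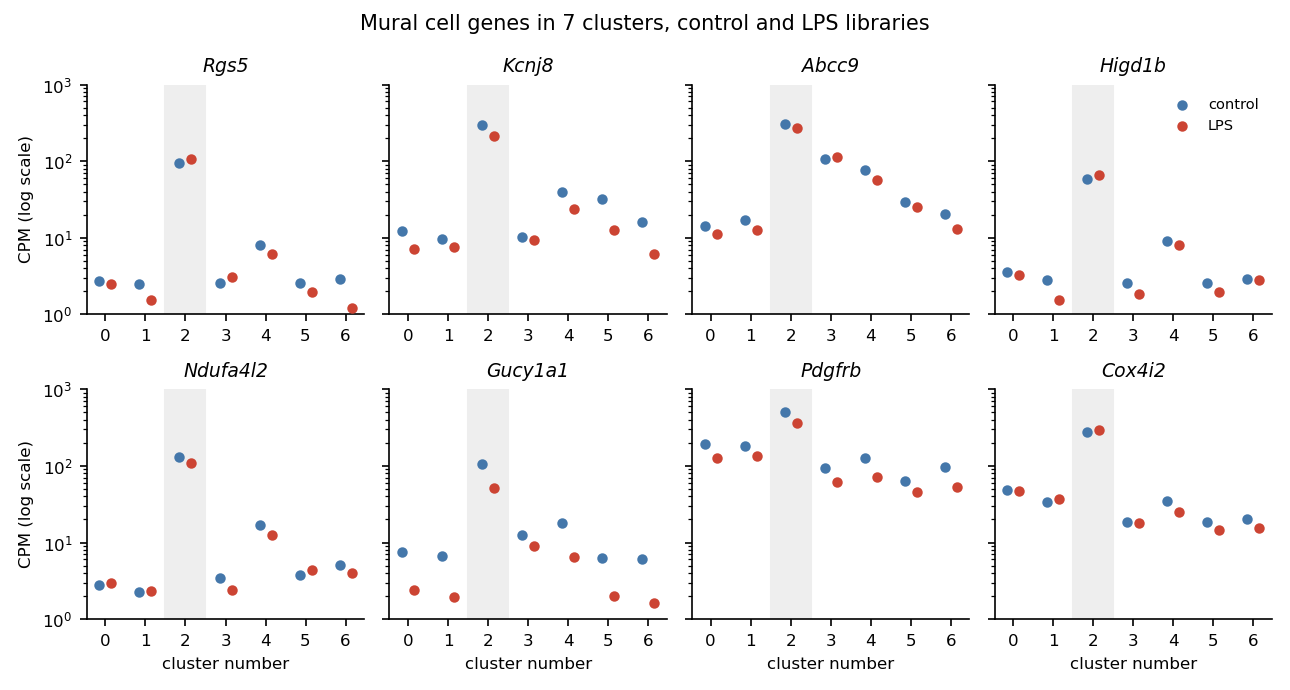
Level of 8 genes (CPM, log axis) in clusters 0 to 6, with control and LPS as separate points and cluster 2 shaded. The pericyte genes peak in cluster 2, with Rgs5 at 93.6 CPM in control and 106 CPM in LPS.

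A scan of all genes, again over the counts that built the clusters, named 5 of the 6 markers. Among genes detected in 25% or more of the cluster's cells before thinning, the 10 with the highest ratio to all other cells included *Rgs5*, at 30.2 times the other cells in control and 40.6 times in LPS. *Ndufa4l2* followed at 33.0 and 29.4 times, *Kcnj8* at 20.7 and 23.8 times, *Higd1b* at 15.4 and 20.6 times, and *Abcc9* at 12.3 and 13.3 times. The other 5 were *RGD1564664* at 10.3 and 13.6 times, *Rgs4* at 12.3 and 6.77 times, *Cox4i2* at 6.68 and 7.30 times, *Mmp9* at 8.35 and 6.44 times, and *Sept4* at 5.98 and 6.80 times. *Rgs4* is a relative of *Rgs5*, *Cox4i2* encodes the hypoxia-linked isoform of a cytochrome oxidase subunit, and *Sept4* encodes a septin. *Mmp9*, the gelatinase that cuts basement membrane collagen, was at 523 CPM in control and 578 CPM in LPS. In cluster 6, the macrophages, *Mmp9* went from 182 CPM to 897 CPM over the same treatment.

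Per cell, the markers were patchy, and were seen in a larger share of cells than in clusters 0 and 4. In control, 86.2% of thinned cluster 2 cells had a UMI of at least 1 of the 6 markers and 61.1% had UMIs of at least 2, against 10.7% and 0.636% in cluster 0. In LPS the shares were 81.2% and 51.1%, against 7.62% and 0.513% in cluster 0. Endothelial cluster 4 had more such cells than cluster 0, with 17.8% and 6.09% in control and 13.6% and 4.27% in LPS. Before thinning, the shares with at least 2 markers were 84.2% and 69.7% in cluster 2, and 19.4% and 13.2% in cluster 4. *Rgs5* alone was seen in 19.9% of thinned control cells (17.7 to 22.3) and 22.9% of LPS cells (20.7 to 25.2). The share of fibroblasts of cluster 0 with an *Rgs5* UMI at the same depth was 0.742% and 0.726%. How much of that came from free RNA, stray cells or the fibroblasts themselves was not tested. *Abcc9* was seen in 54.0% and 49.6% of cluster 2 cells, in 25.1% and 27.0% of cluster 3 cells and in 3.50% and 3.00% of cluster 0 cells.

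Other mural genes stood at different distances from the rest of the cells. *Pdgfrb*, the receptor through which endothelium recruits pericytes, was at 504 CPM in control and 365 CPM in LPS, which was 2.59 and 2.89 times cluster 0. *Mcam*, a mural and endothelial adhesion molecule, was at 92.2 CPM and 92.1 CPM, or 9.02 and 8.6 times cluster 0, but it was higher in endothelial cluster 4, at 175 CPM and 212 CPM. *Cspg4*, which encodes the NG2 proteoglycan, was at 18.4 CPM and 17.0 CPM, below the 32.4 CPM and 39.8 CPM of cluster 3. Some listed mural genes were no higher than in fibroblasts in control. *Anpep* (aminopeptidase N) was at 22.3 CPM in control against 27.8 CPM in cluster 0, and *Tbx18*, a transcription factor gene of mural and epicardial cells, at 52.4 CPM against 53.5 CPM. In LPS, *Anpep* had a UMI in 2.80% of thinned cluster 2 cells and 4.44% of cluster 0 cells. For *Tbx18* these LPS shares were 11.8% (10.2 to 13.6) and 10.4% (9.70 to 11.1). *Art3* was at 5.77 CPM, against 113 CPM in cluster 3. *P2ry14*, a receptor for UDP-sugars, was at 31.0 CPM and 51.7 CPM, or 22.8 and 12.3 times cluster 0. *Vtn* (vitronectin) reached 3.63 CPM and 5.0 CPM, and *Notch3*, the Notch receptor of mural cells, only 5.77 CPM and 1.90 CPM. No *Zic1* UMI, from a transcription factor gene of brain pericytes, was seen in either library.

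The contractile genes are given next. *Acta2* (smooth muscle actin) stood at 1317 CPM in control and 1315 CPM in LPS, or 3.42 and 3.10 times cluster 0. *Tagln* stood at 1081 CPM and 1013 CPM, *Tpm2* at 1022 CPM and 979 CPM, *Myl9* at 576 CPM and 476 CPM and *Des* (desmin) at 475 CPM and 501 CPM. In thinned control cells, *Tagln* was seen in 56.3% of cluster 2 and 39.2% of cluster 0, and *Tpm2* in 89.7% and 83.3%. *Myl9* was seen in 59.8% of cluster 2 and 57.1% of cluster 3, and *Des* in 70.6% and 95.5%. Of the markers of mature smooth muscle, *Myh11* (smooth muscle myosin) was at 11.3 CPM and 8.81 CPM, above the 1.70 CPM and 1.18 CPM of cluster 0, and had a UMI in 3.54% and 2.3% of thinned cells. *Cnn1* (calponin) was at 20.7 CPM and 12.7 CPM.

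Markers of other heart cells differed in how far they reached into cluster 2. The summed endothelial list reached 102 CPM in control and 70.4 CPM in LPS, which was 97.3% and 97.9% of its level in cluster 0 and 4.34% and 3.66% of that in endothelial cluster 4. Its most abundant gene was *Egfl7*, at 33.1 CPM in control. The macrophage list reached 18.9 CPM and 11.9 CPM, or 0.718% and 0.373% of its level in cluster 6. Its defining genes were near 0, with 21 and 1 UMIs of *Csf1r* and 2 and 1 UMIs of *Ptprc* over all cells of the cluster. The cardiomyocyte list reached 341 CPM and 302 CPM, or 142% and 150% of cluster 0 and 2.64% and 2.25% of cluster 3. *Tnnt2*, cardiac troponin T, led it with 187 CPM and 175 CPM, against 91.4 CPM and 82.1 CPM in cluster 0. The fibroblast list stood at 5666 CPM and 4306 CPM, which was 47.0% and 39.3% of cluster 0 and 167% and 178% of endothelial cluster 4. Its most abundant gene was the collagen gene *Col1a1*, at 2549 CPM and 1917 CPM. The part of RNA from fibroblasts in these levels was not tested. Of the catecholamine genes by which ICA cells are defined, *Th* (tyrosine hydroxylase) had 1 UMI in each library and *Pnmt* had none, and the whole list summed to 1.82 CPM and 0.952 CPM. The glial list summed to 6.94 CPM in control and the mesothelial list to 8.43 CPM, and the mesothelial genes *Upk3b* and *Krt19* had no UMI. The label of ICA cells was given to the libraries as a whole, and the depositors placed ICA cells in cluster 3. There the catecholamine list, which includes *Dbh* and *Ddc*, summed to 75.2 CPM in control and 82.1 CPM in LPS. In cluster 2 its most abundant gene was *Ddc*, at 0.854 CPM and 0.238 CPM. A list of cell cycle genes stood at 142 CPM and 149 CPM, and 0 of its 10 tested genes changed 2-fold.

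To describe the spread of contractile genes, cells thinned to 3000 UMIs were ranked by their summed contractile UMIs, and the 25% with the most (contractile-high) were compared with the 25% with the fewest (contractile-low). This is a range and not a type, since the cutting values split ties and 264 control and 366 LPS cells lay within 1 UMI of the lower one. There were 297 control and 348 LPS contractile-low cells, with a median of 3 contractile UMIs in both libraries, and as many contractile-high cells, with medians of 31 and 30. Median totals of the contractile-low and contractile-high cells were 6532 and 6758 UMIs in control. *Acta2*, one of the ranked genes, went from 151 to 3893 CPM in control and from 137 to 4113 CPM in LPS.

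The pericyte genes did not all follow the same direction along this range. *Rgs5* was at 75.9 CPM in contractile-low and 81.4 CPM in contractile-high control cells, a ratio of 1.07 (0.866 to 1.33). *Gucy1b1*, the beta subunit of soluble guanylyl cyclase, was 1.63-fold (1.33 to 1.99) higher in contractile-high cells in control and 1.49-fold in LPS. *Jag1*, a Notch ligand, was 4.64-fold (3.32 to 6.61) higher there in control and 2.74-fold in LPS. In the other direction, the ratio of contractile-high to contractile-low cells was 0.552 in control and 0.484 in LPS for *Abcc9*, 0.532 and 0.531 for *Ndufa4l2* and 0.583 and 0.565 for *Higd1b*. *Ednrb*, an endothelin receptor, had ratios of 0.370 and 0.345, and *Mmp9* of 0.416 and 0.404. Thus *Abcc9*, *Ndufa4l2*, *Higd1b* and *Mmp9* were higher at the contractile-low than at the contractile-high end in both libraries; the cells between the ends were not compared. *Kcnj8* behaved differently, with a ratio of 0.517 (0.458 to 0.583) in control and 1.08 (0.940 to 1.24) in LPS.

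**Figure D2:**
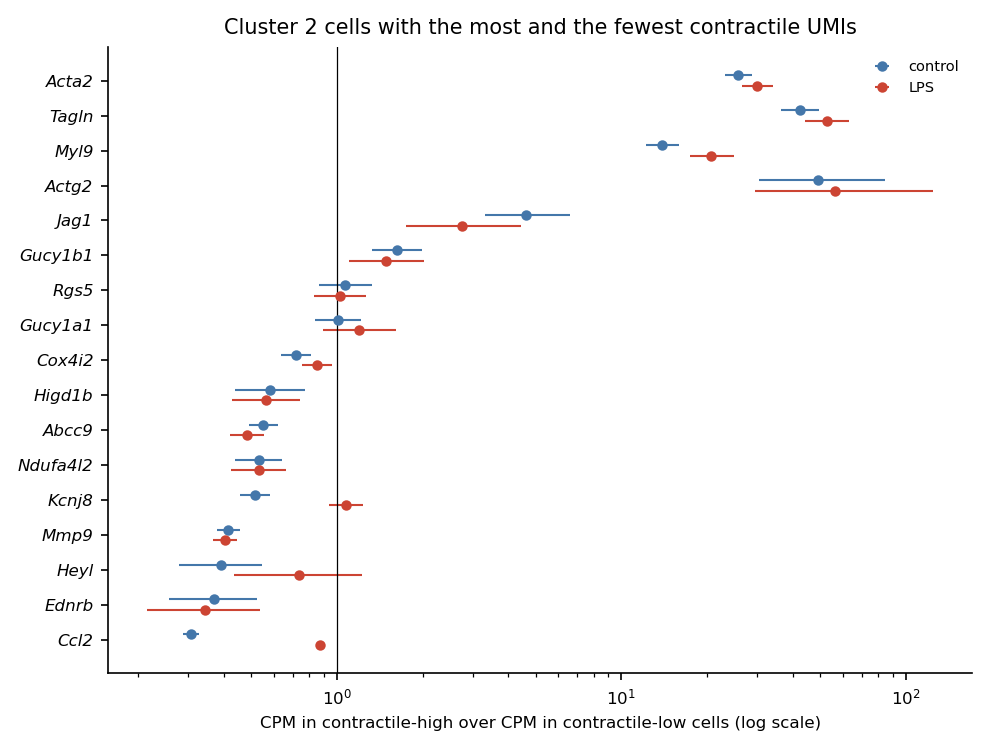
Ratio of CPM in contractile-high to contractile-low cells of cluster 2 for 17 genes (log axis), with exact 95% intervals, control and LPS as separate points. Jag1 lies above 1 in both libraries (4.64 and 2.74), while Abcc9, Ndufa4l2, Higd1b and Mmp9 lie below 1 in both.

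The comparison of LPS with saline asked what the cells of this cluster transcribed 2 h after endotoxin. Among 7613 genes with at least 100 UMIs over both libraries, 212 were at least 2-fold higher with LPS (2.78% of genes tested) and 211 at least 2-fold lower (2.77%). "Rose" and "fell" are used below for changes of at least this size. A gene scarce in 1 library can reach the minimum only through the other, and then had to differ in that direction. Of the 7524 genes with at least 50 of the 100 UMIs in control, 152 were at least 2-fold higher, and of the 7233 with at least 50 in LPS, 118 were at least 2-fold lower. Where a list has fewer such members that rose or fell, their count is given too. The median gene had a ratio of 0.931, or -0.10 on the log2 scale. After centring on that median the split was 239 higher and 152 lower. The 12 genes with the highest ratios among those seen in enough cells were *Il1b*, *Ccl20*, *Ccl4*, *Cxcl3*, *Cxcl10*, *Gbp5*, *Ptgs2*, *Cx3cl1*, *Cxcl6*, *Cxcl2*, *Cxcl1* and *Ccl3*, of which 9 encode chemokines. Of these 12 genes 8 had under 50 UMIs in control and so reached the minimum through the LPS library; *Cxcl3*, *Cxcl10*, *Cxcl6* and *Cxcl1* did not. The place of *Il1b*, which had no UMI in control, rests on the 0.5 UMI added to each sum.

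**Figure D3:**
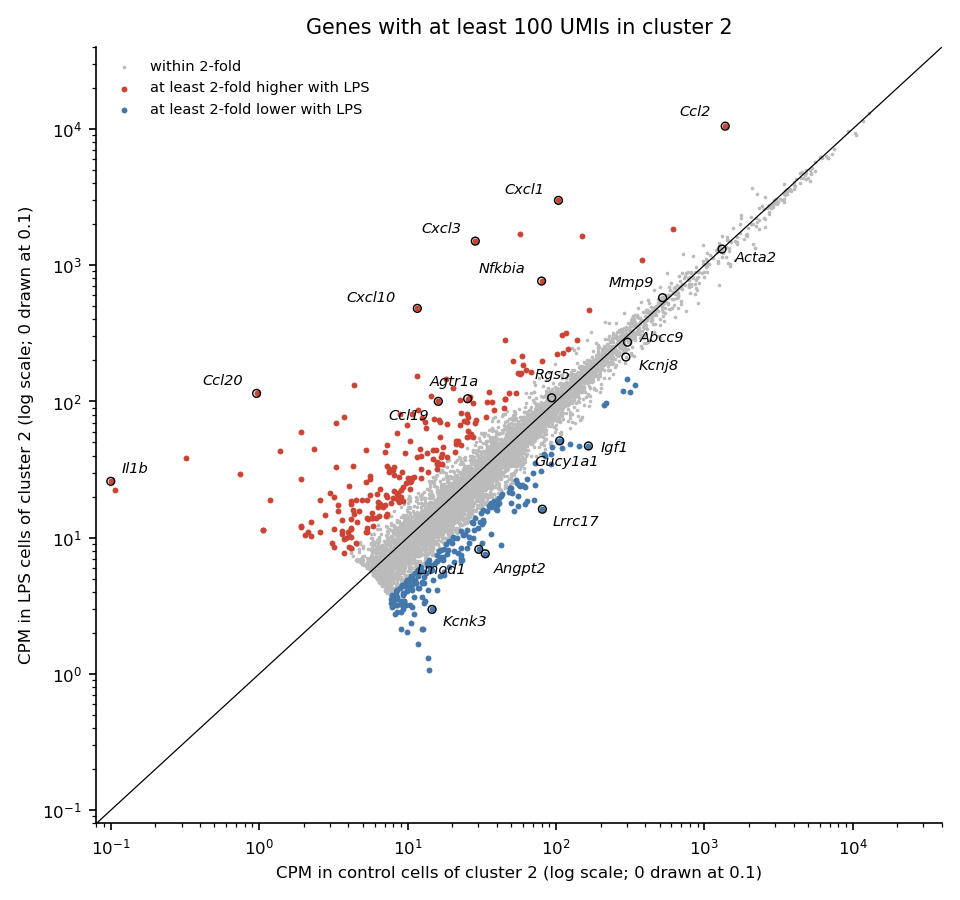
Level of 7613 genes in cluster 2 in control (horizontal, CPM, log axis) against LPS (vertical, CPM, log axis), with 20 genes labelled. The line marks equal levels, and genes at least 2-fold higher or lower with LPS are coloured. Ccl2 is the chemokine with the highest LPS level, at 10490.3 CPM, while Lrrc17 and Angpt2 are among the genes coloured as lower.

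Several of these genes have in their promoter the letters bound by NF-kappaB, the transcription factor family that LPS activates through its receptor TLR4. The motif GGGNNTTTCC was searched on both strands (GGAAANNCCC on the other) in the RefSeq promoters of build GRCr8, from 250 bases before to 50 bases after each gene's start. Genes were matched to promoters by symbol alone, since the build behind the counts is not given in the sources used here, so that a start may differ from the one transcribed in these cells. It was held by 1.53% of 33469 promoters and by 1.96% of the 5914 tested genes that had a promoter in the table. Among genes that rose it was held by 13.4% (22 of the 164 with a promoter, of 212), among the risers with at least 50 UMIs in control by 13.4% as well (16 of 119, of 152), and among genes that fell by 0.690% (1 of 145, of 211). Of the 12 genes with the highest ratios 9 had a promoter, and 5 of these held the motif. Of the 24 genes of the chemokine and NF-kappaB lists that rose 18 had a promoter, and 8 of these held it. These shares are descriptions, and a match is not a bound site. The stretches below hold the matches, in capitals, of 4 chemokine genes that rose in cluster 2 and of *Nfkbia*, which encodes an inhibitor of NF-kappaB and rose with them. They run 5′ to 3′ on the strand of the gene, at chr14:17479371-17479448 (minus strand) for *Cxcl1*, chr14:17467275-17467354 (minus) for *Cxcl2*, chr14:17596471-17596530 (minus) for *Cxcl6*, chr9:91837045-91837104 (plus) for *Ccl20* and chr6:78597069-78597128 (minus) for *Nfkbia*.
Cxcl1: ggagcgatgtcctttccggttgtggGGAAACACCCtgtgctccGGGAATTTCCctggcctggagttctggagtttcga
Cxcl2: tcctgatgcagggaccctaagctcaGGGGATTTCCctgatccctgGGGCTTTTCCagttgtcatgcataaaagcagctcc
Cxcl6: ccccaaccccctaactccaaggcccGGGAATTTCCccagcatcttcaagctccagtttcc
Ccl20: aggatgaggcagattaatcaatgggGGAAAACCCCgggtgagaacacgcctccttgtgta
Nfkbia: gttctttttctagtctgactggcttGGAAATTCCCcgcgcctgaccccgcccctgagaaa
The matches of *Cxcl1* began 102 and 84 bases before the start and those of *Cxcl2* 74 and 54 bases before it. *Cxcl6*, *Ccl20* and *Nfkbia* had 1 match each, at 88, 89 and 31 bases before the start.

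Chemokines had some of the highest ratios in the cluster. Of 10 CXC chemokines tested 8 rose and none fell, with a median log2 ratio of 4.87 against -0.10 over all genes tested. Of the 7 with at least 50 UMIs in control, 5 rose, beside 2.78% of all genes tested. *Cxcl1*, a neutrophil attractant with a pair of the motifs shown above, went from 104 to 2994 CPM, a ratio of 28.8 (27.0 to 30.7). *Cxcl2*, *Cxcl3* and *Cxcl6* bind the same neutrophil receptor family. *Cxcl2* went from 4.38 to 132 CPM, *Cxcl3* from 28.6 to 1503 CPM, a ratio of 52.5 (46.5 to 59.5), and *Cxcl6* from 57.3 to 1706 CPM. *Cxcl10*, an attractant of T cells, went from 11.6 to 483 CPM, a ratio of 41.5 (34.3 to 50.6). *Cx3cl1* (fractalkine), counted with this list, went from 1.92 to 59.4 CPM. The ratios of the 4 neutrophil attractants thus lay between 28.8 and 52.5 after 2 h. With LPS the summed CXC list was at 7236 CPM in cluster 2 and 39065 CPM in macrophage cluster 6. The macrophage marker list in cluster 2 was then at 0.373% of its level in cluster 6. The part of RNA from macrophages in the rises of *Cxcl2* and the other CXC genes was not tested.

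Of 9 CC chemokines 8 rose and 1 fell, with a median log2 ratio of 2.92, and 4 of the 5 with at least 50 UMIs in control rose. The shares over all genes tested were again 2.78% and 2.77%. *Ccl2*, the main attractant of monocytes, was high before treatment and went from 1384 to 10490.3 CPM, a ratio of 7.58 (7.44 to 7.72). *Ccl7*, a close relative, went from 151 to 1639 CPM. *Ccl20*, which attracts cells that carry CCR6, had 9 UMIs in control and 963 in LPS (0.961 and 115 CPM), a ratio of 119 (62.6 to 262). Its log2 ratio was 6.82, and 7.55 without cells with 2 or more endothelial or macrophage marker genes. *Ccl19*, a ligand of the lymphocyte and dendritic cell receptor CCR7, went from 16.1 to 100.2 CPM, a ratio of 6.22 (5.22 to 7.44). The one that fell was *Ccl11* (eotaxin), from 79 UMIs to 27 (8.43 to 3.21 CPM), so that it reached the minimum through the control library.

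Of the 14 NF-kappaB subunits and inhibitors listed, 9 reached the minimum of 100 UMIs, and 8 of those rose and none fell, beside 2.78% of all genes tested that rose. Among the 8 with at least 50 UMIs in control, 7 rose. *Nfkbia* went from 80.1 to 765 CPM, a ratio of 9.56. The subunit genes *Nfkb1* and *Nfkb2* went from 26.4 to 107 CPM and from 10.7 to 80.7 CPM. *Birc3*, an inhibitor of apoptosis that acts upstream of NF-kappaB, went from 2.35 to 45.0 CPM. *Rela*, the p65 subunit, had a ratio of 1.81 and was the member that did not reach 2-fold. Of 9 genes of mRNA decay and cytokine signal inhibition 5 were tested, of which 2 rose and none fell, with a median log2 ratio of 0.17. Of the 4 with at least 50 UMIs in control 1 rose. *Zc3h12a*, which encodes an RNase that degrades cytokine mRNAs, went from 8.43 to 58.7 CPM, and *Socs1*, an inhibitor of cytokine receptor signalling, from 3.42 to 15.7 CPM. Of 13 LPS sensing genes 6 were tested and 1 rose, *Irak3*, a brake on TLR signalling, from 13.6 to 42.0 CPM, with a list median of 0.03. The 4 MAP kinase phosphatases tested had no change of 2-fold. *Tlr4* itself, the LPS receptor, was low, with 12 UMIs in control and 9 in LPS, under the minimum of 100 UMIs, so its change was not tested.

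Immediate early genes, which encode transcription factors switched on within minutes to hours of a stimulus, were divided at 2 h. Of 12 tested 5 rose and 1 fell, and of the 11 with at least 50 UMIs in control 4 rose. The shares over all genes tested were 2.78% higher and 2.77% lower. *Cebpb*, a regulator of acute phase and cytokine genes, went from 381 to 1095 CPM, *Ier3*, a stress-induced survival gene, from 168 to 468 CPM, *Myc* from 21.4 to 48.7 CPM and *Atf3* from 3.63 to 11.2 CPM. *Junb* rose by a ratio of 2.04, at the 2-fold line. *Fos*, whose transcript is short-lived, fell from 39.4 to 16.2 CPM, a log2 ratio of -1.28 that was -0.94 without the 8% of cells richest in UMIs.

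Of 19 interferon response genes 13 were tested, of which 10 rose, 3 did neither and none fell, with a median log2 ratio of 2.3. Among the 9 with at least 50 UMIs in control, 6 rose, beside 2.78% of all genes tested in the cluster. *Isg15*, a ubiquitin-like antiviral protein, went from 45.5 to 283 CPM, *Ifit3* from 3.31 to 33.2 CPM and the transcription factor *Irf1* from 10.4 to 51.1 CPM. *Gbp5*, a guanylate-binding protein, went from 0.747 to 29.3 CPM, a log2 ratio of 5.20 that was 6.18 after thinning. Of 6 adhesion genes 3 were tested and 2 rose, and of the 2 with at least 50 UMIs in control 1 rose. Counts this small are descriptions only. The risers were *Icam1* and *Vcam1*, the ligands of leukocyte integrins on vessel walls, which went from 18.3 to 146 CPM and from 3.74 to 77.0 CPM. Of 7 MHC class I genes 3 rose, among them *Tap1*, the peptide transporter, with a ratio of 3.66.

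Genes of prostaglandin, nitric oxide and oxidant metabolism gave 4 rises in 12, of which 2 were among the 10 with at least 50 UMIs in control. The share of all genes tested that rose was 2.78%. *Ptgs2* (cyclooxygenase-2) went from 1.39 to 43.6 CPM, a log2 ratio of 4.92 that was 4.18 after thinning. *Ptges* (prostaglandin E synthase) went from 20.2 to 125 CPM and the phospholipase *Pla2g2a* from 613 to 1840 CPM. *Gch1*, which makes a cofactor of nitric oxide synthases, went from 1.92 to 27.0 CPM. *Sod2*, mitochondrial superoxide dismutase, was abundant at 2108 and 3672 CPM, a ratio of 1.74 that stayed under 2-fold.

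Of 12 cytokine and growth factor genes 5 reached 100 UMIs and 7 did not. Of those 5, 4 rose, beside 2.78% of all genes tested. Only *Csf1* among the 4 had 50 UMIs in control, so that *Il6*, *Il1b* and *Csf3* reached the minimum through the LPS library. *Il6* went from 2.99 to 21.2 CPM, below the 204 CPM of macrophage cluster 6 in LPS. *Csf1*, the growth factor of macrophages, went from 29.1 to 73.5 CPM. *Il1b* had no UMI in control and 218 in LPS, or 26.0 CPM (22.6 to 29.6), at least 65.3-fold higher by the exact 95% limit of the ratio (81.0-fold against a floor of 3 UMIs in the control cluster). *Il1b*, *Ccl3* and *Ccl4* are genes that macrophages make in large amounts, and their LPS levels in cluster 2 were 0.328% (0.285 to 0.375), 0.323% and 0.33% of those in cluster 6. The macrophage marker list in LPS was at 0.373% of its level in cluster 6. In fibroblast cluster 0 the LPS levels of *Il1b*, *Ccl3* and *Ccl4* were 23.5, 68.7 and 41.7 CPM, beside 26.0, 69.2 and 38.6 CPM in cluster 2. The part of RNA from macrophages in these 3 rises was not tested. *Cxcl10* stood in cluster 2 at 678% (583 to 792) of its level in cluster 6, *Ccl20* at 201% and *Cxcl6* at 303%. The part of RNA from other clusters in these levels was not tested either. *Tnf* had 1 UMI in control and 5 in LPS, and *Csf2* had none.

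**Figure D4:**
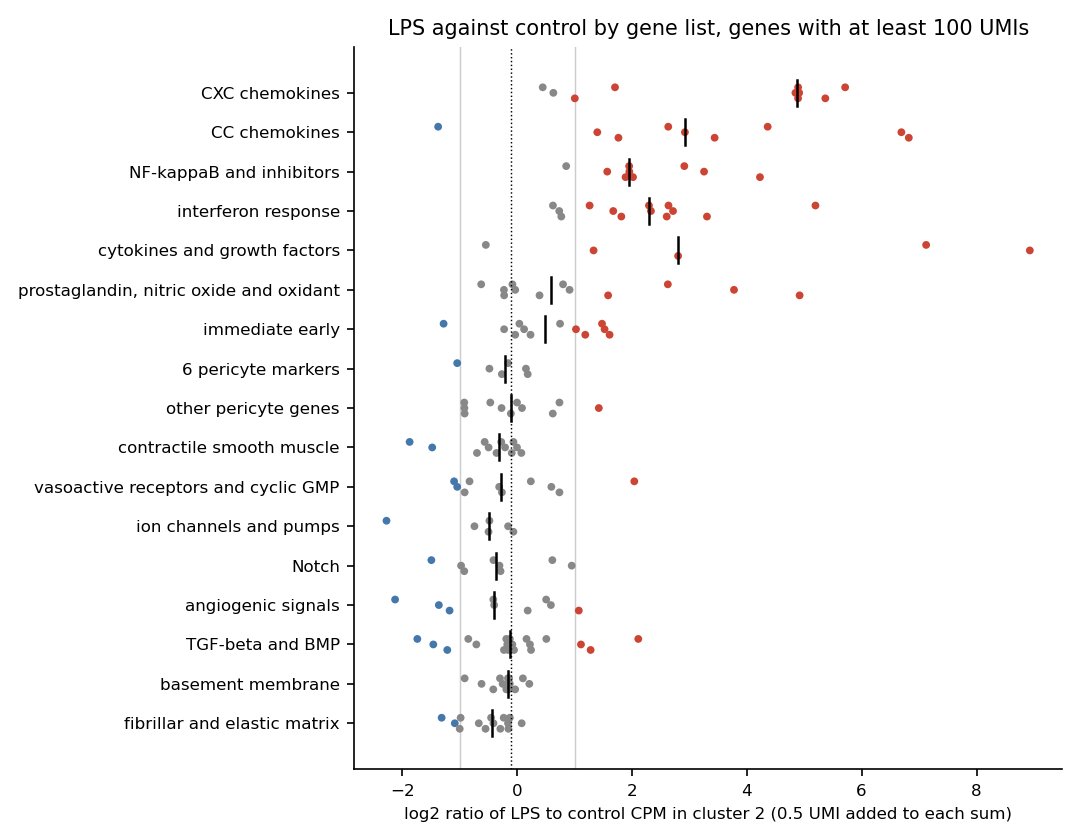
Log2 ratio of LPS to control in cluster 2 for the genes of 17 lists, each point 1 gene with at least 100 UMIs, black bars the list medians, the dotted line the median of all tested genes (-0.10) and grey lines 2-fold. The CXC chemokines have the highest list median, at 4.87, while the basement membrane list (-0.16) lies near the dotted line and the contractile (-0.32) and fibrillar matrix (-0.43) lists lie below it.

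The same genes were measured in fibroblasts from the same 2 libraries, and levels in both clusters are set side by side. In cluster 0, 373 of 11227 genes tested rose (3.32%) and 818 fell (7.29%), with more UMIs to measure them. *Ccl2* went from 448 to 7567 CPM in cluster 0, so cluster 2 was at 3.09 times (3.02 to 3.15) its level in control and 1.39 times (1.38 to 1.40) in LPS. *Cxcl1* was lower in cluster 2 than in cluster 0 in control, at 0.635 times, and higher in LPS, at 1.34 times. *Cxcl3* showed the same turn, with 0.870 times in control and 2.2 times in LPS. *Icam1* was at 1.27 and 1.08 times and *Nfkbia* at 1.39 and 1.36 times.

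A few response genes stood further apart from fibroblasts. *Cxcl10* in LPS was at 483 CPM in cluster 2 and 63.6 CPM in cluster 0, or 7.59 times as high (7.27 to 7.91), and it had a UMI in 43.3% of cluster 2 cells against 11.7% of cluster 0 cells thinned to the same depth. In control the shares were 2.86% and 0.727%. The *Cxcl10* level of fibroblast cluster 7 in LPS was higher still, at 1858 CPM. *Ccl19* was at 100.2 CPM in cluster 2 and 8.35 CPM in cluster 0 with LPS, 12 times as high (10.8 to 13.3), and 20.8 times as high in control. No other cluster of at least 100 cells had a *Ccl19* level in LPS above 14.3 CPM. *Agtr1a*, the main receptor of the vasoconstrictor angiotensin II, went from 25.4 to 105 CPM in cluster 2, a ratio of 4.12 (3.57 to 4.78), and from 8.33 to 20.3 CPM in cluster 0. It had a UMI in 7.58% of control and 24.8% of LPS cells of cluster 2, against 2.41% and 5.55% in cluster 0. *Cx3cl1* and *Vcam1* were lower in cluster 2 than in cluster 0 with LPS, at 0.623 and 0.755 times. Whether these ratios differ between the clusters by more than the spread between animals could not be tested.

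**Figure D5:**
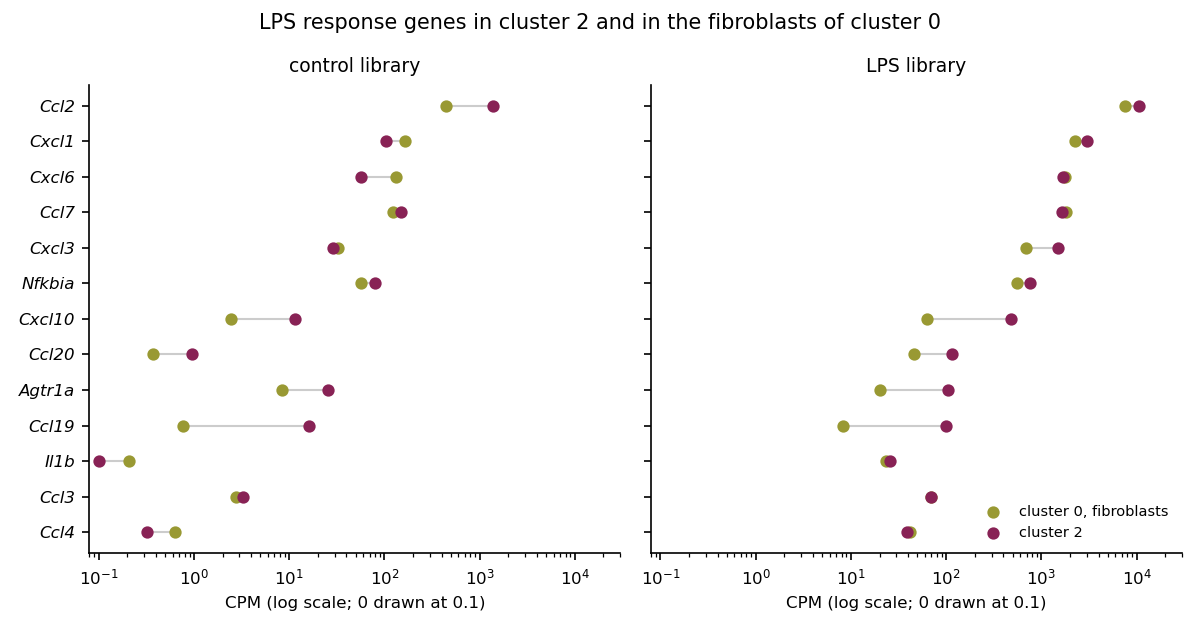
Level (CPM, log axis) of 13 response genes in cluster 2 and in fibroblast cluster 0, with control and LPS in separate panels. In LPS, Cxcl10 (483 against 63.6 CPM), Ccl19 (100.2 against 8.35 CPM) and Agtr1a (105 against 20.3 CPM) are the genes farthest above cluster 0.

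Among the vasoactive receptors and cyclic GMP genes, the rise of *Agtr1a* was the only one, and 2 of the 10 tested fell. Of all genes tested 2.78% rose and 2.77% fell, so such small counts in this paragraph are descriptions only. *Gucy1a1* fell from 106 (99.5 to 113) to 51.4 CPM (46.7 to 56.5), a ratio of 0.485 (0.432 to 0.544), or -1.04 on the log2 scale. Centred on the median gene it was -0.94, and without cells with fewer than 2 identity markers -0.89, and in neither setting was it 2-fold. Its partner subunit *Gucy1b1* went from 91.5 to 48.6 CPM, a ratio of 0.531. In cluster 0 the ratio of *Gucy1a1* was 0.314, from a far lower level. *Adra1b*, an adrenergic receptor, fell from 8.22 to 3.81 CPM (77 and 32 UMIs), and this fall was lost after centring too. Of the 9 such genes with at least 50 UMIs in LPS only *Gucy1a1* fell. The endothelin receptors *Ednra* and *Ednrb* stood at 79.2 and 66.0 CPM and at 46.6 and 26.2 CPM. Of 6 ion channel and pump genes 1 fell, *Kcnk3*, which encodes a background potassium channel, from 14.6 to 2.98 CPM. It had 25 UMIs in LPS, and of the 5 such genes with at least 50 there none fell. Its log2 ratio was -2.27, and -3.11 without cells with fewer than 2 identity markers. *Kcnj8* had a ratio of 0.716 (0.674 to 0.760) and *Abcc9* of 0.897 (0.849 to 0.948). Thus both subunits of the nitric oxide receptor had ratios near 0.5, while the channel genes that mark the cluster were measured at most of their control level.

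The 6 identity markers summed to 989 CPM in control and 817 CPM in LPS. At least 2 of them were seen in 61.1% of thinned control cells and 51.1% of thinned LPS cells. Over all genes tested 2.78% rose and 2.77% fell, so counts of 1 or 2 members below are descriptions only. Of the 6 identity markers none rose and 1, *Gucy1a1*, fell, and of 11 other mural genes tested 1 rose, *Steap4*, which encodes a metalloreductase, from 6.41 to 17.3 CPM. *Foxs1*, a forkhead transcription factor gene of pericytes, had a ratio of 1.54. Of 12 contractile genes none rose and 2 fell. *Lmod1*, which nucleates actin filaments in smooth muscle, fell from 30.2 to 8.21 CPM, a ratio of 0.272 (0.206 to 0.355), and *Smtn* (smoothelin) fell from 50.2 to 18.0 CPM, a ratio of 0.358 (0.296 to 0.431). *Acta2* had a ratio of 0.999 (0.973 to 1.02). Among 5 genes of the RGS family only *Rgs16* rose, from 3.20 to 11.7 CPM, and it reached the minimum through the LPS library; of the 4 with at least 50 UMIs in control none rose.

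The angiogenic and Notch lists hold signals that pass between mural and endothelial cells. *Angpt2*, the angiopoietin that loosens pericyte contact with endothelium, fell from 33.4 to 7.62 CPM, a ratio of 0.228. *Ptn* (pleiotrophin) fell from 212 to 93.7 CPM. Of 9 angiogenic genes tested 3 fell and 1 rose, the endothelial growth factor *Vegfa*, from 5.23 to 11.1 CPM. Among the 8 with at least 50 UMIs in control none rose, since *Vegfa* reached the minimum through the LPS library. The endothelial markers were lower with LPS as well, at 102 CPM in control and 70.4 CPM in LPS. Cells with 2 or more endothelial or macrophage marker genes numbered 199 of 1188 in control and 88 of 1421 in LPS. Those cells were counted at full depth, and the control cells had more UMIs per cell. At equal depth their shares were 3.37% (2.42 to 4.56) and 1.58% (0.992 to 2.38). Without those cells the log2 ratio of *Angpt2* was -2.12, against -2.12 with them, and that of *Ptn* -1.13, against -1.18, while that of *Vegfd* was -0.99, against -1.36, and no longer 2-fold. Of 8 Notch genes 1 fell, the target *Hey2*, from 21.9 to 7.74 CPM, and *Heyl*, another target, went from 50.5 to 26.7 CPM, a ratio of 0.528. The ligand *Jag1* went from 45.7 to 23.2 CPM, a ratio of 0.508 in cluster 2 and of 1.04 in cluster 0. *Nrarp*, a feedback inhibitor of Notch, went the other way, from 7.37 to 14.3 CPM, a log2 ratio of 0.95 that was 0.33 after thinning. After centring on the median gene the Notch list had 1 member higher and 1 lower. Of 3 PDGF genes tested 1 rose. *Pdgfra*, a fibroblast gene, rose from 27.5 to 55.2 CPM, a call that lies at the 2-fold line. Its log2 ratio was 1.00, and 0.64 without the 8% of cells richest in UMIs, where it was no longer 2-fold. By mean CPM over cells it was 0.80.

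Genes of TGF-beta and BMP signalling moved both ways, with 3 of 19 higher and 3 lower, and 2 lower of the 18 with at least 50 UMIs in LPS. *Bmp2* rose from 9.61 to 41.7 CPM, a log2 ratio of 2.11 that was 2.78 after thinning. The rise of *Inhba*, a log2 ratio of 1.28, was 0.97 after thinning and no longer 2-fold. *Bambi*, a decoy receptor for this family, fell from 52.5 to 15.7 CPM and *Tgfb3*, a ligand, from 55.4 to 20.1 CPM. The matrix genes mostly stayed within 2-fold. None of 14 basement membrane genes rose or fell, with *Col4a1* at 1646 and 1493 CPM. Of 14 fibrillar and elastic matrix genes 2 fell, *Eln* (elastin), from 32.4 to 13.0 CPM, and *Col5a1*, from 13.5 to 6.31 CPM. *Col5a1* was no longer 2-fold lower after centring (log2 ratio -0.98), nor was either gene after thinning (-0.995 for *Eln* and -0.93 for *Col5a1*). *Timp3*, an inhibitor of metalloproteases, fell from 27.5 to 9.88 CPM. *Adamts4*, an aggrecan-cleaving protease, rose from 7.26 to 20.0 CPM, a log2 ratio of 1.46 that was 2.36 after thinning, and *Mmp9* had a ratio of 1.10. None of the 5 integrin and 4 complement genes tested changed 2-fold.

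The 12 genes with the lowest ratios among those seen in enough cells were *Lrrc17*, *Wisp2*, *Angpt2*, *Pik3ip1*, *Metrnl*, *Lmod1*, *Igf1*, *Tril*, *Gprc5c*, *Islr*, *Cavin2* and *Stard10*, with ratios from 0.200 to 0.294. Of these *Pik3ip1* alone had under 50 UMIs in LPS, at 35. *Lrrc17*, a secreted leucine-rich repeat protein, fell from 81.0 to 16.2 CPM. *Igf1*, the insulin-like growth factor, fell from 166 to 47.1 CPM, and from 241 to 82.6 CPM in cluster 0. *Tril*, an accessory protein of TLR4 signalling, fell from 61.8 to 17.7 CPM in cluster 2, where its control level was 4.53 times that of cluster 0.

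The chemokine response was also set out along the contractile range. In control, *Ccl2* was at 1797 CPM in contractile-low and 553 CPM in contractile-high cells. In LPS both were close, at 10841 and 9490 CPM, so that the ratio to control was 6.03 (5.83 to 6.24) in contractile-low and 17.2 (16.2 to 18.2) in contractile-high cells. *Cxcl1* had the same form, with ratios of 25.1 (22.3 to 28.3) and 68.5 (55.6 to 85.5). *Nfkbia*, by contrast, had ratios of 10.7 and 10.8, and *Cxcl3* of 61.5 and 52.6. *Jag1* had ratios of 0.716 (0.425 to 1.19) and 0.424 (0.321 to 0.554). *Kcnj8* had a ratio of 0.566 (0.50 to 0.639) in contractile-low cells and 1.18 (1.03 to 1.35) in contractile-high cells. Cells with few contractile transcripts thus held more *Ccl2*, *Cxcl1* and *Kcnj8* in control, and with LPS the ends of the range were closer for all 3 genes.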

How the data were processed

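The study sequenced 1 saline and 1 LPS library of neonatal rat heart cells (10X Genomics 3′ kit). Per the submitters' processing notes, reads were counted with Cell Ranger 2.2.0 and cells clustered with Seurat 2.3.4 after canonical correlation alignment; the genome build and annotation are not given in the sources used here. The deposited matrices hold raw UMI counts per gene and cell, and the deposited cell tables give each cell's cluster and cell type. Here, counts were summed over the cells of a cluster and divided by its total (CPM), with exact Poisson intervals, and LPS to control ratios had exact conditional intervals (Python 3.11.15, numpy 2.4.6, scipy 1.17.1, pandas 2.3.3). Log2 ratios had 0.5 UMI added to each sum. A gene was tested for size with at least 100 UMIs and called at 2-fold. For shares, cells were thinned to 3000 UMIs and given Clopper-Pearson intervals. No doublet caller was run; an alternative left out the 8% of cells with the most UMIs. Genes were named from the lists, plus 12 at each end of the ratios seen in at least 10% of cells and 10 leading genes. The members and lists were chosen with earlier results of these data known. The summing and calling were tested on simulated counts. Scaling to the cluster's total means that a large rise lowers other genes slightly.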

Additional observations from a re-analysis of the deposited data

Results flagged for a closer look

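Of the genes of the lists, 7 had LPS to control ratios in opposite directions in cluster 2 and fibroblast cluster 0, with both intervals on their own side of 1. The difference between the clusters was not tested, and the median gene of cluster 2 had a ratio of 0.931, so that small ratios below 1 are near the median. In cluster 2 the ratio was 0.896 for *Col18a1* (1.07 in cluster 0), 0.916 for *Dcn* (1.16), 0.896 for *Fbn1* (1.02), 0.900 for *Fn1* (1.03) and 0.834 for *Mmp2* (1.02), all of which encode matrix proteins or a matrix protease. *Dusp6*, a phosphatase of ERK, had a ratio of 0.749 in cluster 2 (0.616 to 0.909) and 1.35 in cluster 0. *Nrarp*, a feedback inhibitor of Notch, had a ratio of 1.94 in cluster 2 and 0.722 in cluster 0, with a log2 ratio in cluster 2 of 0.95 from all UMIs and 0.33 after thinning.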

How the results depend on the processing

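No setting measures the spread between animals. No paired analysis was possible because saline and LPS had a single library each. The counts of genes that rose and fell, 212 and 211, were 1113 and 2504 without the minimum of UMIs, 411 and 810 at 1.5-fold, and 104 and 43 at 3-fold. The count of genes that fell was also 123 after thinning, 372 with a minimum of 50 UMIs and 113 with a minimum of 200. Centring on the median gave 239 and 152, mean CPM over cells 207 and 217, and removing the 8% of cells richest in UMIs 189 and 183. Leaving out cells with UMIs of fewer than 2 identity markers gave 196 and 175. That took out 188 control and 430 LPS cells, counted at full depth, and the LPS cells had fewer UMIs per cell. Asking for 50 of the 100 UMIs in control gave 152 and 211, and 50 of them in LPS 212 and 118. These 3 settings were chosen after seeing the data. Leaving out cells with 2 or more endothelial or macrophage marker genes gave 196 and 178. Thinned sums, in which fewer genes reach 100 UMIs, shared 139 of the 212 and 83 of the 211 calls. As a share of cells outside the fibroblast clusters, cluster 2 made up 33.7% in control and 34.9% in LPS. Of the 10 leading genes, 6 were shared when each gene was set against its highest other cluster and 5 with a minimum of 50% of cells. Over 261 genes and 7 settings, 1693 of 1827 ratios stayed within their interval, 134 left it and no called gene turned direction. The called genes whose ratio moved by over 1.5 times were, on the log2 scale and after thinning, *Gbp5* from 5.20 to 6.18, *Ccl4* from 6.69 to 5.74, *Adamts4* from 1.46 to 2.36, *Ptgs2* from 4.92 to 4.18 and *Bmp2* from 2.11 to 2.78, beside *Il1b*, whose value is set by the 0.5 UMI added to a control count of 0. *Ccl5* went from 1.77 to 3.00 without the cells richest in UMIs, *Csf3* from 7.12 to 8.26 and *Ccl20* from 6.82 to 7.55 without cells with other markers, and *Kcnk3* from -2.27 to -3.11 without cells with fewer than 2 identity markers. The 91 called genes lost 1 to 6 calls per setting, among them *Gucy1a1*, *Pdgfra*, *Cxcl16*, *Junb*, *Fos*, *Adra1b*, *Inhba*, *Vegfd*, *Col5a1* and *Eln*. The cause was not tested.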
